A study of Mus musculus with 24 samples.

Results

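The genes described here are Id1, Id2, Id3, Smad6 and Smad7, 5 genes named for their response to bone morphogenetic proteins (BMPs) and transforming growth factor beta (TGF-beta). They were taken by symbol from the deposited count tables, in which they are 5 of 24421 symbols, and all 5 passed the filter on low counts that left 14693 genes for testing. They were chosen by symbol, with their levels and their genotype and stimulation differences in these libraries already known, so the p-values below set the size of a difference against the spread between libraries and are no independent evidence. RNA was sequenced from macrophages grown from the bone marrow of C57BL/6J mice aged 12 weeks. The cells were wild type (WT) or carried a knockout (KO) of Ogt, which encodes the enzyme that attaches O-GlcNAc to nuclear and cytosolic proteins. Each genotype was left unstimulated (M0), given lipopolysaccharide (LPS, 100 ng/ml) for 12 hours, or given interleukin-4 (IL-4, 10 ng/ml) for 12 hours, with 4 libraries in each of the 6 groups. The labels give no Cre driver, no deleted exon, no animal of origin and no further allele. Libraries are named here by the number in their label code, 1 to 4 in WT and 5 to 8 in KO. Nothing in the labels says that these are separate animals or cultures, and the p-values then measure only the spread between these libraries, which may be technical.

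Members of the BMP and TGF-beta families bind pairs of serine/threonine kinase receptors, which phosphorylate receptor-regulated Smads. BMP receptors act mainly on Smad1 and Smad5 and TGF-beta receptors mainly on Smad2 and Smad3, and both join Smad4 to bind DNA. Id genes and the inhibitory Smads are direct targets. Id proteins are helix-loop-helix proteins without a DNA-binding region that hold E proteins away from DNA, and Smad6 and Smad7 block the receptors and so close a feedback loop. In macrophages TGF-beta is best known for restraining inflammatory activation, and Id3 for its part in the identity of liver macrophages.

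The promoters of 3 of the 5 genes are shown with the letters of Smad-binding motifs near the start. Sites farther from the start were not searched. RefSeq windows on GRCm38.p6 cover 250 bases before and 50 bases after the start and were matched by symbol for Id2 (chr12:25096043-25096342, minus strand), Id3 (chr4:136143572-136143871, plus strand) and Smad6 (chr9:64022010-64022309, minus strand). Id1 and Smad7 are not shown. Sequences run 5′ to 3′ on the strand of the gene, and capitals mark matches, on either strand, to CAGAC (a Smad-binding element), GGCGCC and GGAGCC (letters reported for BMP-responsive Smad binding), and CCAAT. The TATA box letters TATAAA were also searched.
Id2: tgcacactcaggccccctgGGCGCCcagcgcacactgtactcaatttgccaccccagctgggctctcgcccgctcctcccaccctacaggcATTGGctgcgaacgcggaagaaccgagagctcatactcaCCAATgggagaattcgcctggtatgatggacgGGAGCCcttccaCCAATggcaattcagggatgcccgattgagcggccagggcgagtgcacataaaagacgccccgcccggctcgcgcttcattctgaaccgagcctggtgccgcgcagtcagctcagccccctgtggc
Id3: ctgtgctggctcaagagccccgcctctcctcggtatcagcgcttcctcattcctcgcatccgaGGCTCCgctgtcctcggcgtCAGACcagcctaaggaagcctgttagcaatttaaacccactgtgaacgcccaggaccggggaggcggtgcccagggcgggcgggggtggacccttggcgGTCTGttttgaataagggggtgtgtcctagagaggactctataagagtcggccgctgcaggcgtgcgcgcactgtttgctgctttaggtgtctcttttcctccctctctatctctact
Smad6: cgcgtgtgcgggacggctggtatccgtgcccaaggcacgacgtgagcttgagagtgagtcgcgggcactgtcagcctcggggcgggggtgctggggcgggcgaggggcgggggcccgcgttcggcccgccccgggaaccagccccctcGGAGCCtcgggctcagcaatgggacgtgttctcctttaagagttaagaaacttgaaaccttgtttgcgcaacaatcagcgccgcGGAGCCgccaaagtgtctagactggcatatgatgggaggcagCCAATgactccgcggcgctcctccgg
The Id2 window held 1 match to GGCGCC, at -231 to -226 from the start, 1 to GGAGCC and 3 to CCAAT. The Id3 window held 2 matches to CAGAC and 1 to GGAGCC. The Smad6 window held 2 matches to GGAGCC and 1 to CCAAT, the latter after the start. GGAGCC was thus in 3 of 3 windows and CAGAC in 1 of 3, while 30.8% and 49.6% of 32851 RefSeq windows of the same length held them. GGCGCC was in 11.9% of all windows, CCAAT in 37.4% and TATAAA, found in 0 of the 3, in 13.6%. The motifs searched do not overlap one another in these windows, and a match describes letters, not binding.

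The libraries fell into 2 classes of depth. The gene counts of 21 libraries ranged from 63429271 to 94942464, while 3 LPS libraries (WT 1, WT 2 and KO 7) held 172771 to 209368. Levels are counts per 1000000 library counts (CPM). At 3 counts, the floor below which a count of 0 cannot be told from a low level, the deep libraries reach 0.0303 to 0.0550 CPM and the 3 shallow ones only 15.5 to 17.9 CPM, limits that cover counting error only. Ogt was lower in KO in every state, at 34.5 to 36.9 CPM in KO M0 against 47.3 to 52.4 in WT M0, a log2 change of -0.49 ± 0.057 (SE), and by -0.63 ± 0.072 in LPS and -0.71 ± 0.057 in IL-4. Its values did not overlap between genotypes in any state, but KO cells kept most Ogt counts, and the labels do not say which part of the gene is deleted. The macrophage markers Lyz2, Adgre1 and Csf1r were detected in all deep libraries. The sum of 10 stromal markers was of the same order as that of 8 macrophage markers, 10514 to 12269 against 11760 to 13368 CPM in WT M0 and 14997 to 19786 against 7300 to 9034 CPM in KO M0. Of that stromal sum, Col1a1, Col1a2 and Col3a1 gave 5342, 3759 and 1443 CPM on average in WT M0, whereas Dcn (2.27 CPM) and Lum (0.19 CPM) were low, and the cells these counts came from were not tested. Of the macrophage sum, Lyz2 alone gave 9307 CPM on average in WT M0 and 5086 in KO M0. Fewer cells of a type and less RNA per cell cannot be told apart in such bulk samples.

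Per kilobase of exon (GENCODE M21), Id3 was the most abundant of the 5 genes in WT M0 at 91.7 ± 11.1 CPM per kb (SD, n = 4), above Id2 at 21.3 ± 2.06. Id1 stood at 12.8 ± 3.33, Smad6 at 12.0 ± 1.57 and Smad7 at 6.76 ± 0.281 CPM per kb. Id1 and Smad6 did not differ beyond their spread. On the same scale the TGF-beta genes Tgfb3 and Tgfb1 stood at 60.5 ± 5.68 and 45.8 ± 1.60, Tgfbr2 at 34.7 ± 2.39 and Tgfbr1, the 2 chains of its receptor, at 23.1 ± 1.24. The BMP receptor genes were lower, with Acvr1 at 7.87 ± 0.355, Bmpr1a at 4.97 ± 0.394 and Bmpr2 at 3.16 ± 0.255 CPM per kb.

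**Figure D1:**
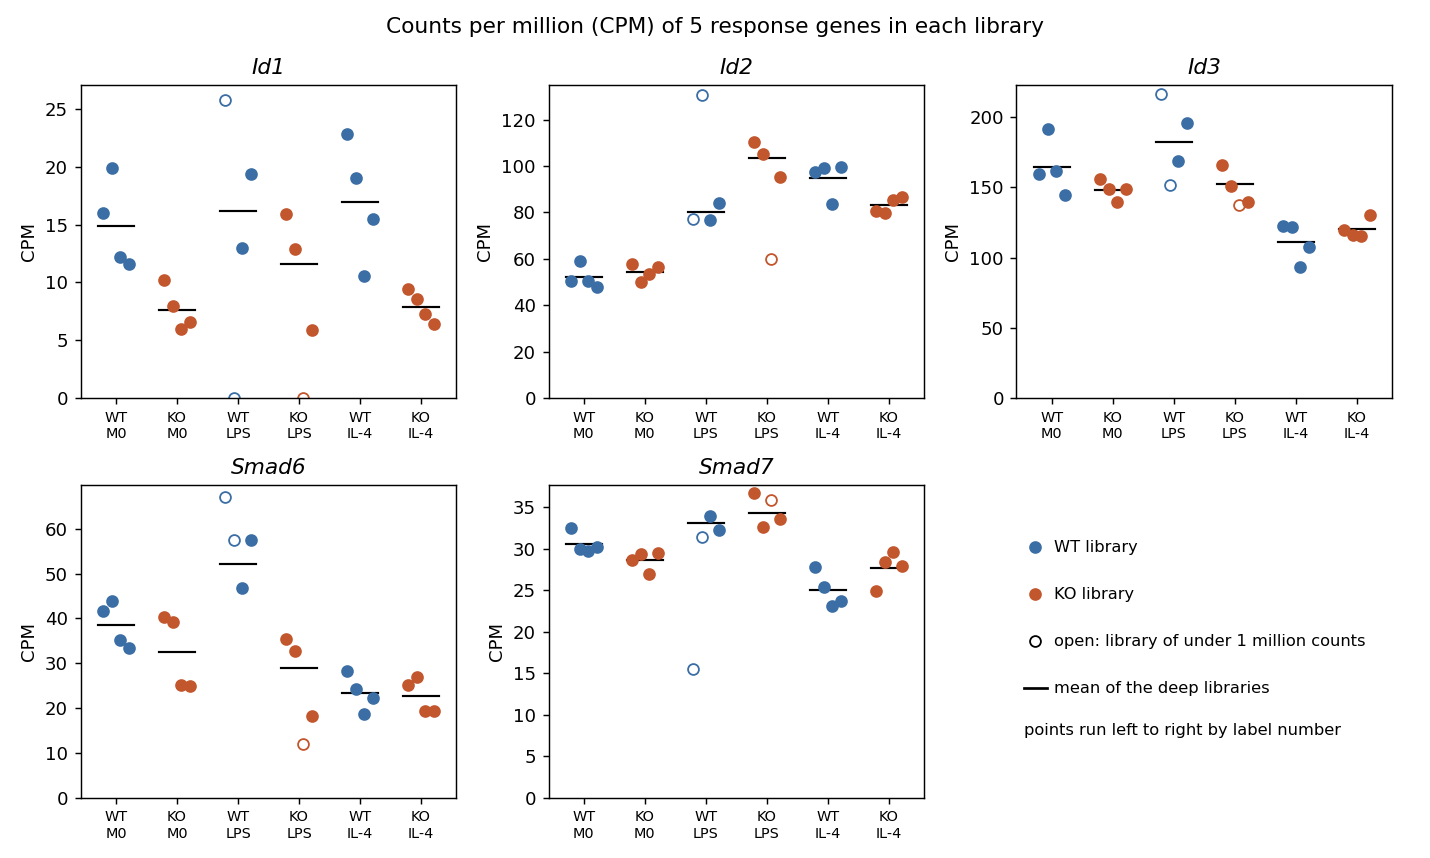
Level in CPM (linear axes from 0) of the 5 genes in each library, by genotype and state, with open points for the 3 shallow LPS libraries and a bar at the mean of the deep libraries. Id1 lies lower in KO M0 (5.94 to 10.2 CPM) than in WT M0 (11.6 to 19.9), Id2 is higher in both stimulated states than in M0, and Id3 and Smad6 are lowest in IL-4.

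Id1, an Id protein usually described as the most direct BMP target, was lower in KO than in WT in M0 and in IL-4, at roughly the same fold in each. The 4 WT M0 libraries held 16.0, 19.9, 12.2 and 11.6 CPM and the 4 KO M0 libraries 10.2, 7.92, 5.94 and 6.54. Every KO library lay below every WT library, and the highest KO value was close to the lowest WT value. The log2 change was -0.95 ± 0.25 (fold 0.516, edgeR quasi-likelihood test, Benjamini-Hochberg adjusted p = 0.00693). In IL-4 the WT libraries held 22.8, 19.0, 10.5 and 15.5 CPM and the KO libraries 9.43, 8.54, 7.25 and 6.42, again without overlap. The log2 change there was -1.10 ± 0.25 (fold 0.467, edgeR adjusted p = 0.00130). Both calls depended on WT libraries 1 and 2, the higher ones in both states. Without them the change in M0 was -0.65 (edgeR adjusted p = 0.161) and in IL-4 -0.72 (adjusted p = 0.0885). With label number pairs summed to single libraries the values were as large, -0.96 and -1.08, but did not pass (edgeR adjusted p = 0.193 and 0.0860).

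In LPS the Id1 difference did not pass the test. The deep WT libraries 3 and 4 held 12.9 and 19.4 CPM and the deep KO libraries 5, 6 and 8 held 16.0, 12.9 and 5.91, so the genotypes overlapped. The shallow WT libraries held 5 counts (25.8 CPM) and 0 counts, and the shallow KO library held 0, which allows up to 17.9 CPM. The log2 difference was -0.48 ± 0.32 (95% interval -1.13 to 0.17, edgeR adjusted p = 0.263), and it lay between -0.79 and -0.17 when 1 library was left out, lowest without KO LPS 5 and nearest 0 without WT LPS 4 or KO LPS 8. Without KO numbers 5 and 6 it was -1.45 and passed (edgeR adjusted p = 0.00226), a fit in which KO LPS rests on 1 deep and 1 shallow library. Neither stimulus changed Id1 by the test within a genotype. The log2 difference of LPS from M0 in KO was 0.58 ± 0.27 (edgeR adjusted p = 0.0591), which passed without KO M0 5 (0.75) or without KO LPS 8 (0.89), and the other differences from M0 lay between 0.04 and 0.19. Ordered by the mean of the deep libraries, Id1 ran from WT IL-4 (17.0 CPM) through WT LPS (16.1), WT M0 (14.9), KO LPS (11.6) and KO IL-4 (7.91) to KO M0 (7.65), with every neighbour in this order overlapping the next.

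Id2, an Id protein known for its need in innate lymphoid cells and some dendritic cells, rose with both stimuli in both genotypes. WT M0 libraries held 50.4, 59.2, 50.5 and 47.7 CPM and KO M0 libraries 57.5, 50.1, 53.3 and 56.6. With IL-4 the WT values were 97.5, 98.9, 83.8 and 99.8 CPM and the KO values 80.6, 79.7, 85.4 and 86.5. All 8 IL-4 libraries lay above all 8 M0 libraries. The IL-4 change was 0.87 ± 0.080 on the log2 scale in WT (edgeR adjusted p = 7.93e-10) and 0.61 ± 0.079 in KO (edgeR adjusted p = 5.12e-07), and the genotype difference in that response, -0.26 ± 0.11, did not pass (adjusted p = 0.281).

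With LPS the deep libraries held 76.8 and 83.9 CPM of Id2 in WT and 110.2, 105.2 and 95.3 in KO. The shallow WT libraries held 15 and 25 counts (77.4 and 131 CPM) and the shallow KO library 10 counts (59.8 CPM), so the groups overlapped only through the shallow libraries. The LPS change was 0.66 ± 0.094 in WT (edgeR adjusted p = 1.07e-06) and 0.91 ± 0.084 in KO (edgeR adjusted p = 4.06e-10). KO exceeded WT in LPS by 0.32 ± 0.10 (edgeR adjusted p = 0.0177). That call is fragile. Without WT 3, WT 4, KO 5 or KO 6 in turn it was lost (log2 0.23, 0.34, 0.26 and 0.30), without both KO 5 and KO 6 it was 0.20 (edgeR adjusted p = 0.214), DESeq2 gave an adjusted p of 0.0904, and without both WT 3 and WT 4, the deep WT LPS libraries, the value was -0.030. In M0 the genotype difference of Id2 was 0.07 (95% interval -0.10 to 0.23) and in IL-4 it was -0.19 (-0.36 to -0.03, edgeR adjusted p = 0.0570), past the test only without WT IL-4 3 (-0.25) or without KO 7 and 8 (-0.24). KO LPS had the highest mean of the deep libraries at 103.6 CPM and WT M0 the lowest at 51.9. The 4 stimulated groups each overlapped their neighbour in the order and stood apart from the 2 M0 groups.

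Id3, the Id gene with the highest level, fell with IL-4 in both genotypes. WT M0 libraries held 159, 192, 162 and 144 CPM and WT IL-4 libraries 123, 122, 92.9 and 108. KO M0 libraries held 156, 149, 140 and 149 CPM and KO IL-4 libraries 119.9, 116, 116 and 131. Within each genotype the IL-4 values all lay below the M0 values. The log2 change was -0.56 ± 0.086 in WT (fold 0.678, edgeR adjusted p = 3.79e-06) and -0.30 ± 0.086 in KO (fold 0.813, edgeR adjusted p = 0.00511), and their difference was 0.26 ± 0.12 (adjusted p = 0.321). The change in KO was -0.23 (edgeR adjusted p = 0.121) without KO numbers 5 and 6, and its call was also lost with label number pairs summed. LPS left no change that passed, at 0.15 ± 0.099 in WT and 0.03 ± 0.091 in KO. In LPS the deep WT libraries held 168 and 196 CPM and the deep KO libraries 166, 151 and 139.8, and the shallow ones 217 and 152 in WT and 138 in KO. The deep libraries of the genotypes did not overlap there, and the log2 difference was -0.27 ± 0.10 (edgeR adjusted p = 0.0532). It lay close to the threshold and passed without WT 2, WT 3 or KO 5 (-0.29, -0.35 and -0.33). In M0 the genotypes differed by -0.15 (95% interval -0.32 to 0.03) and in IL-4 by 0.12 (-0.06 to 0.29), neither past the test. By the mean of the deep libraries Id3 ran from WT LPS (182 CPM) through WT M0 (164), KO LPS (152) and KO M0 (148) to KO IL-4 (121) and WT IL-4 (111), and only KO M0 and KO IL-4 did not overlap among neighbours.

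Smad6, the inhibitory Smad that acts mainly on BMP receptors, was lower in KO than in WT under LPS. The deep WT LPS libraries held 46.7 and 57.6 CPM and the deep KO ones 35.5, 32.8 and 18.3. The shallow WT libraries held 13 and 11 counts (67.0 and 57.5 CPM) and the shallow KO library 2 counts (12.0 CPM). All 4 WT libraries lay above all 4 KO libraries. The log2 change was -0.88 ± 0.22 (fold 0.544, edgeR adjusted p = 0.00363), and it was -0.86 (adjusted p = 0.0108) without the 3 shallow libraries. Leaving out WT 4 alone ended the call (-0.76, edgeR adjusted p = 0.0523), as did leaving out both deep WT libraries (-1.13, adjusted p = 0.559), while without KO 5 and 6 the value was -1.53. Summing label number pairs to single libraries also ended the call. In M0 the WT libraries held 41.7, 44.0, 35.3 and 33.5 CPM and the KO libraries 40.2, 39.2, 25.3 and 25.0, with a log2 difference of -0.25 ± 0.18 (edgeR adjusted p = 0.326). The KO values formed 2 pairs. Numbers 7 and 8 lay below every WT library and numbers 5 and 6 within the WT range, and without 5 and 6 the difference was -0.62 (edgeR adjusted p = 0.000273), and without 7 and 8 it was 0.042 (adjusted p = 0.846).

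IL-4 lowered Smad6 in both genotypes. WT IL-4 libraries held 28.4, 24.2, 18.7 and 22.3 CPM and KO IL-4 libraries 25.2, 27.0, 19.3 and 19.3. The change from M0 was -0.72 ± 0.18 in WT (edgeR adjusted p = 0.00105), where all IL-4 values lay below all M0 values. In KO it was -0.52 ± 0.18 (edgeR adjusted p = 0.0174), where the ranges overlapped and leaving out KO M0 5, KO M0 6, KO IL-4 7 or KO IL-4 8 ended the call (log2 -0.39, -0.41, -0.44 and -0.45). Summing label number pairs to single libraries ended the call in WT and in KO. The genotypes did not differ by the test in IL-4 (-0.04, 95% interval -0.41 to 0.32). LPS against M0 gave 0.45 ± 0.21 in WT (edgeR adjusted p = 0.0671), with no overlap of the ranges, and -0.18 ± 0.19 in KO (adjusted p = 0.420). The difference of these responses was -0.63 ± 0.28 (edgeR adjusted p = 0.158). WT LPS had the highest mean of the deep libraries, 52.1 CPM, and was the one group set apart from its neighbour in the order. The other 5 groups, from 38.6 CPM in WT M0 to 22.7 in KO IL-4, overlapped in sequence.

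Smad7, the inhibitory Smad that acts on both TGF-beta and BMP receptors, had no log2 difference larger than 0.29 in size in any comparison of genotypes or of a stimulus with M0. WT M0 libraries held 32.5, 29.9, 29.8 and 30.2 CPM and KO M0 libraries 28.6, 29.3, 27.0 and 29.4. The ranges did not overlap, but by a narrow gap, and the log2 difference was -0.10 ± 0.067 (edgeR adjusted p = 0.312). In IL-4 the WT values were 27.8, 25.4, 23.1 and 23.6 CPM and the KO values 24.8, 28.4, 29.6 and 27.9. IL-4 lowered Smad7 in WT by -0.29 ± 0.067 (edgeR adjusted p = 0.000538), or -0.23 (adjusted p = 0.0642) without WT 3 and 4, and gave -0.05 ± 0.067 in KO (adjusted p = 0.585), with a difference between these responses of 0.25 ± 0.094 that did not pass (edgeR adjusted p = 0.221). In LPS the deep WT libraries held 33.9 and 32.2 CPM and the deep KO libraries 36.6, 32.6 and 33.6, and the shallow ones 3 and 6 counts (15.5 and 31.4 CPM) in WT and 6 counts (35.9 CPM) in KO. LPS raised Smad7 in KO by 0.26 ± 0.072 (edgeR adjusted p = 0.00220), a call that DESeq2 did not make (0.18, adjusted p = 0.135), and gave 0.09 ± 0.080 in WT (edgeR adjusted p = 0.333). The genotypes differed by 0.15 ± 0.067 in IL-4 (edgeR adjusted p = 0.0870), which passed without WT IL-4 1 or KO IL-4 5 (0.20 each), and by 0.07 ± 0.085 in LPS. KO LPS had the highest mean of the deep libraries (34.3 CPM) and WT IL-4 the lowest (25.0), and WT M0 and KO M0 were the one pair of neighbours in that order without overlap.

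**Figure D2:**
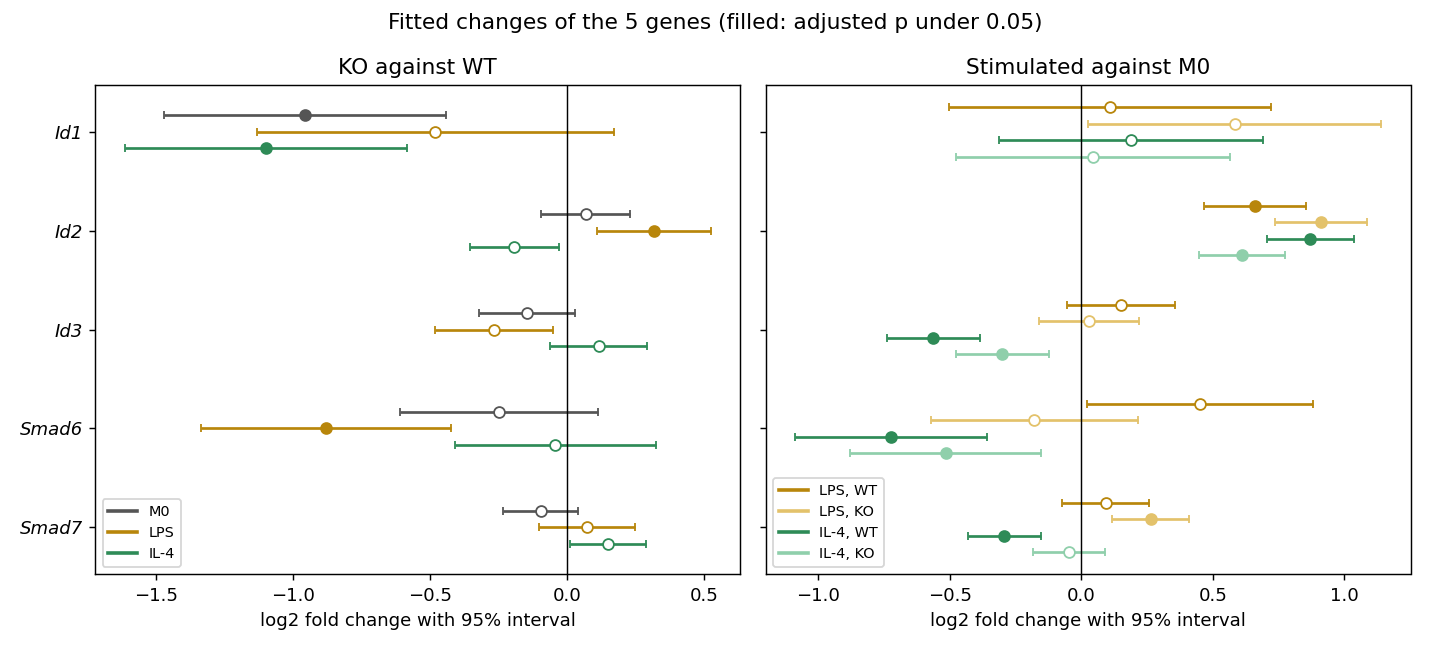
Fitted log2 fold changes of the 5 genes with 95% intervals, KO against WT on the left and stimulated against M0 on the right, filled where the adjusted p is under 0.05. Id1 in M0 (-0.95) and IL-4 (-1.10) and Smad6 in LPS (-0.88) lie farthest below 0 on the left, and Id2 lies above 0 for every stimulus and genotype on the right (0.61 to 0.91).

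The counts of called members did not set these 5 genes apart from the transcriptome. Between genotypes 1 of 5 passed in M0, where 22.3% of all genes tested passed, 2 of 5 in LPS (30.9% of all genes) and 1 of 5 in IL-4 (36.1%). For LPS against M0 the counts were 1 of 5 in WT (57.7%) and 2 of 5 in KO (67.3%), and for IL-4 against M0 they were 4 of 5 in WT (60.1%) and 3 of 5 in KO (51.3%). No member passed edgeR's test of a genotype difference in the response to LPS (11.4% of all genes) or to IL-4 (1.14%), with 1 and 3 members at an unadjusted p under 0.05 and 0 called by DESeq2 in both. Values of the genotypes did not overlap for 2 members in M0 (Id1 and Smad7, against 27.1% of all genes), 1 in LPS (Smad6, 12.9%) and 1 in IL-4 (Id1, 37.1%). Stimulated and M0 values did not overlap for 2 members with LPS in WT (38.9% of all genes), 2 with LPS in KO (47.7%), 4 with IL-4 in WT (57.5%) and 2 with IL-4 in KO (46.8%). The comparisons of 1 stimulus with M0 and those of the genotypes share libraries, so their values are given side by side and not as repeats of one another.

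Id1 and Smad6 also differed between pairs of label numbers within a genotype. In KO M0 and KO IL-4, numbers 5 and 6 lay above 7 and 8 for both genes, and in WT M0 numbers 1 and 2 lay above 3 and 4. Markers of other cells moved with genotype and with the same KO pairs. In KO M0 numbers 5 and 6 held less of the stromal sum (14997 and 16455 CPM against 19786 and 18958 in 7 and 8) and more of the macrophage sum (9034 and 8366 against 7300 and 7522). Of 10 stromal markers 8 were higher in KO in M0, 7 in LPS and 8 in IL-4 and none was lower. In KO IL-4 numbers 5 and 6 held 11239 and 11107 CPM of stromal genes and 7 and 8 held 14655 and 12957. The deep-library sums were 14126 to 14450 CPM in WT and 18997 to 19076 in KO in LPS, and 7604 to 8186 and 11107 to 14655 in IL-4. Of 12 endothelial markers 7 were higher in KO in M0, 4 in LPS and 6 in IL-4, among them Vwf, Kdr, Egfl7 and Cldn5 in each state. Of all 14693 genes, 1738 were higher in KO and 1541 lower in M0, 2384 and 2150 in LPS, and 2632 and 2675 in IL-4. Other endothelial markers overlapped between genotypes in M0. Cdh5 held 3.46 to 22.3 CPM in KO and 3.73 to 4.76 in WT, Pecam1 2.91 to 15.1 and 3.17 to 4.46, and Emcn 1.06 to 6.81 and 1.94 to 3.81. The endothelial sum was 28.0 to 32.4 CPM in WT M0, 46.8 and 50.4 in KO M0 5 and 6, and 110.1 and 116 in KO M0 7 and 8. In IL-4 it was 52.8 to 64.2 CPM in WT and 83.1 to 119.6 in KO, and in the deep LPS libraries 52.7 to 55.6 and 95.5 to 127. None of the 22 markers was at 0 in a deep library, whereas the erythroid genes Hba-a1 and Hbb-bs were at 0 in all of them and the dendritic sum stayed below 7.43 CPM. Of 8 macrophage markers 4 were lower in KO and none higher in M0, 5 lower and 2 higher in LPS, and 1 lower and 1 higher in IL-4. Their summed level in the deep LPS libraries was 15927 to 15960 CPM in WT and 9807 to 10652 in KO, and in IL-4 5547 to 6175 and 4947 to 5210. Lyz2 was the largest part of these sums, at 8208 CPM on average in deep WT LPS and 3759 in deep KO LPS libraries. In IL-4 Lyz2 averaged 3231 CPM in WT and 2353 in KO, whereas Csf1r averaged 1087 and 1043, Cd68 742 and 760 and Adgre1 585 and 590. The part of the stromal, endothelial and macrophage markers in the differences of Id1 and Smad6 was not tested.

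**Figure D3:**
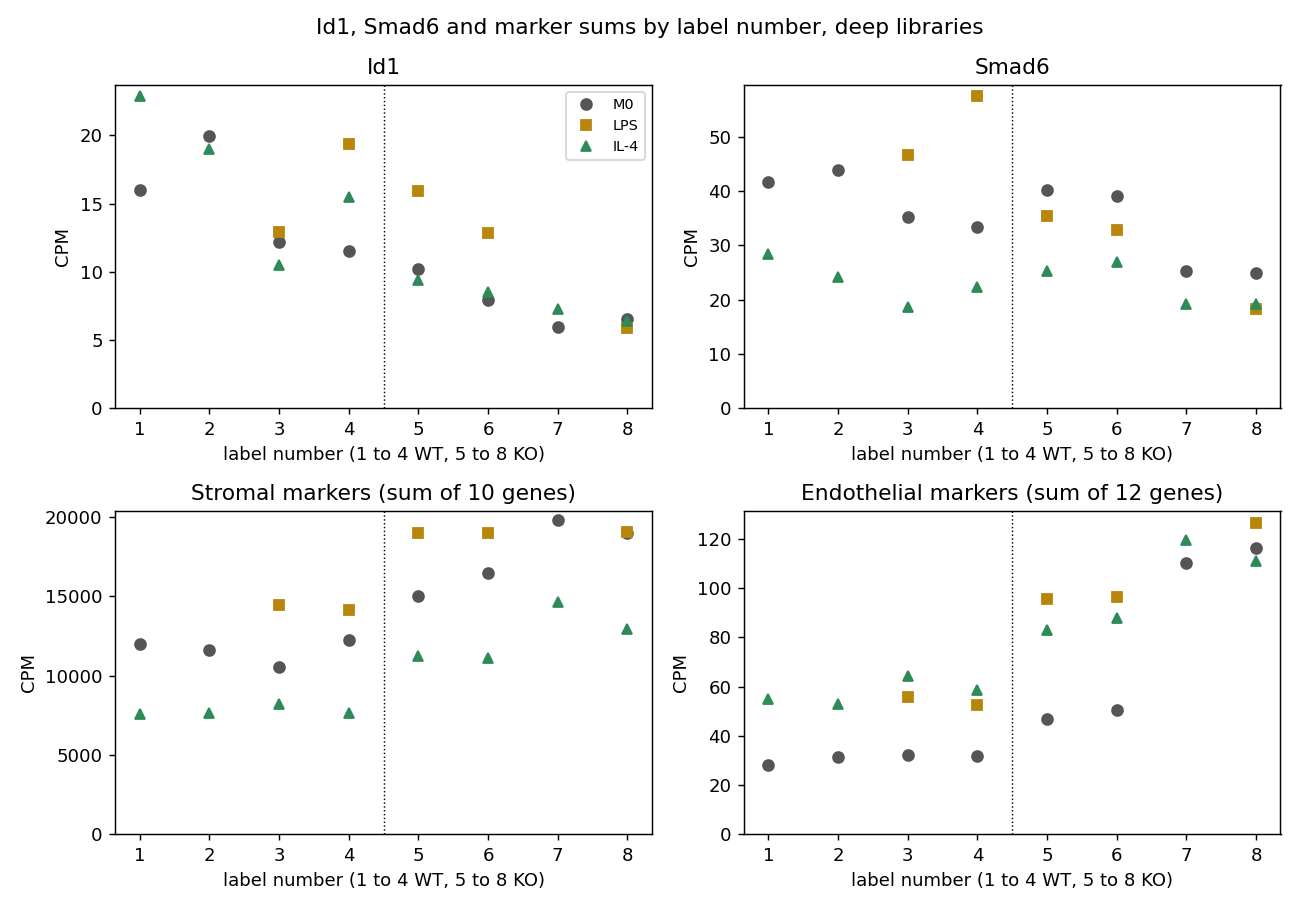
Level in CPM of Id1 and Smad6 and the summed CPM of 10 stromal and 12 endothelial markers against the label number, deep libraries only, with WT left and KO right of the dotted line. Smad6 in KO M0 drops from 40.2 and 39.2 CPM at numbers 5 and 6 to 25.3 and 25.0 at 7 and 8, where the endothelial sum rises from 46.8 and 50.4 to 110.1 and 116 CPM.

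Around these targets, the wider pathway was read from 7 lists of 100 genes in all, 90 of which were tested. In KO against WT 19 genes were higher and 11 lower in M0, 19 and 8 in LPS, and 34 and 6 in IL-4. Their share called was 33.3%, 30.0% and 44.4%, beside 22.3%, 30.9% and 36.1% of all genes tested, and the median log2 differences were 0.08, 0.03 and 0.14 beside 0.02, 0.01 and 0.01 over all genes. The lists hold genes of many cell types, and the stromal and endothelial markers given above were higher in KO in the same comparisons. Their part was not tested. DESeq2 called 11 pathway genes higher and 8 lower in M0, 14 and 4 in LPS, and 25 and 4 in IL-4. Summing label number pairs to single libraries left 3, 14 and 13 calls. Calls over all genes fell as well. DESeq2 called 750 higher and 655 lower of 19140 genes in M0, 1617 and 1046 in LPS, and 1482 and 1309 in IL-4. Summed pairs gave 285 higher and 272 lower of 15577 genes in M0, 1142 and 946 in LPS, and 934 and 896 in IL-4.

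Of 19 ligands 5 were higher and 3 lower in KO in M0, 3 and 1 in LPS, and 8 and 1 in IL-4. Their shares called were 42.1%, 21.1% and 47.4%, beside 22.3%, 30.9% and 36.1% of all genes. Tgfb1 was lower in KO in every state, by -0.37 ± 0.098 in M0 (220 to 239 CPM in WT and 163 to 197 in KO), -0.57 ± 0.12 in LPS and -0.37 ± 0.097 in IL-4 (edgeR adjusted p = 0.00774, 0.000542 and 0.00403). Every KO library lay below every WT library in each state. Calls were lost without WT 1 and 2 in M0 (-0.35, adjusted p = 0.103) and IL-4 (-0.32, adjusted p = 0.102), and without WT 3 and 4 in M0 (-0.41, adjusted p = 0.0688) and LPS (-0.54, adjusted p = 0.332). Summing number pairs also ended those in M0 and IL-4 (-0.38 and -0.37). Tgfb2, a TGF-beta made mainly by non-immune cells, was higher in KO in IL-4 by 0.72 ± 0.11 (edgeR adjusted p = 1.78e-05). Bmp2, a BMP that induces Id genes, fell with LPS by -2.30 ± 0.21 in WT, from 12.3 to 15.8 CPM in M0 to 2.61 and 2.85 in the deep LPS libraries and 0 counts in both shallow ones. In KO it fell by -0.47 ± 0.17 (edgeR adjusted p = 0.0157), from 6.67 to 11.6 CPM in M0 to 4.49 to 7.34 in the deep LPS libraries, with 1 count in the shallow one. Bmp2 was 1.23 ± 0.22 higher in KO in LPS (edgeR adjusted p = 0.000146), and its genotype difference in the LPS response was 1.83 ± 0.27 (edgeR adjusted p = 7.15e-05). Both calls rest on WT LPS 3 and 4 and were lost without them, when the remaining WT LPS libraries held 0 counts.

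Among receptors, Bmpr1a, a type I BMP receptor, was higher in KO in all states (0.31 ± 0.067, 0.30 ± 0.088 and 0.36 ± 0.067, edgeR adjusted p = 0.00151, 0.0106 and 0.000176). Without WT 3 and 4 it was 0.28 in M0 (adjusted p = 0.0521) and 0.24 in LPS (adjusted p = 0.933), and in LPS leaving out WT 3 (0.29) or WT 4 (0.31) alone was enough to end the call. Summing number pairs gave 0.30 in M0 (adjusted p = 0.0561). Tgfbr2 was higher in KO in LPS by 0.38 ± 0.098 and in IL-4 by 0.31 ± 0.080. With number pairs summed Tgfbr2 did not pass in LPS (0.42, edgeR adjusted p = 0.0829) or IL-4 (0.31, adjusted p = 0.148), and over all alternatives it ranged from 0.28 to 1.18 in LPS, the highest value being that without WT 3 and 4. Eng, a co-receptor that is also an endothelial gene, was lower in KO in IL-4 by -0.48 ± 0.12, at 53.5 to 59.4 CPM in WT and 32.4 to 46.7 in KO, and by -0.42 (adjusted p = 0.0802) without WT 3 and 4 and by -0.47 (adjusted p = 0.155) with number pairs summed. Of the 6 receptor-regulated and common Smads, 1 (Smad4) was higher in KO in LPS and 2 (Smad3 and Smad4) in IL-4, by 0.14 to 0.27. These shares were 16.7% and 33.3%, beside 30.9% and 36.1% of all genes. The call of Smad4 was lost in DESeq2 in both states, and that of Smad3 in IL-4 without WT 1 and 2, WT 3 and 4 or KO 7 and 8, with values from 0.12 to 0.40 over the alternatives.

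Extracellular inhibitors and latency proteins gave 4 higher and 4 lower of 17 in M0 (47.1% called, beside 22.3% of all genes). Bmper, a secreted BMP binder, was higher in KO by 0.84 ± 0.13 (2.68 to 3.64 CPM in WT and 3.94 to 6.68 in KO), Fst, which traps activins, by 0.52 ± 0.095 and Thbs1, which activates latent TGF-beta, by 0.47 ± 0.091. Grem1, a BMP antagonist, was lower in KO by -0.83 ± 0.15 and Lrrc32, which holds latent TGF-beta at the cell surface, by -0.42 ± 0.070. In LPS 4 of the 17 were higher and none lower (23.5%, beside 30.9% of all genes). Among them was Ltbp1, a latent TGF-beta binding protein, by 0.50 ± 0.095. In IL-4 7 were higher and none lower (41.2%, beside 36.1% of all genes), with Fst up by 0.69 ± 0.096. The genotype difference in the LPS response of Lrrc32 was 0.59 ± 0.11 (edgeR adjusted p = 0.000739), as LPS took it from 101 to 105 CPM in KO M0 to 213 to 260 in deep KO LPS libraries, and from 131 to 147 to 221 and 223 in WT.

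Nedd4l, a ubiquitin ligase that acts on Smads and receptors, was higher in KO in LPS (0.56 ± 0.094) and IL-4 (0.60 ± 0.070, edgeR adjusted p = 6.51e-07), and Tgif1, a Smad corepressor, in IL-4 by 0.30 ± 0.042. Other targets of the pathway did not share a direction, with 5 higher and 3 lower of 17 in M0, 4 and 3 in LPS and 7 and 3 in IL-4. Their shares called were 47.1%, 41.2% and 58.8%, beside 22.3%, 30.9% and 36.1% of all genes. Hey1, a repressor induced by Notch and BMP, was higher in KO M0 by 1.28 ± 0.23 (2.07 to 2.41 CPM in WT and 3.59 to 7.51 in KO). In LPS Klf10, a TGF-beta early response gene, was lower by -0.62 ± 0.084 and Cdkn2b, a cell cycle inhibitor, higher by 0.89 ± 0.16. In IL-4 Ldlrad4, an inhibitor of TGF-beta signalling, was higher by 0.71 ± 0.093 and Unc5b, a netrin receptor, by 0.50 ± 0.067. Of the calls on inhibitors, regulators and targets named here and above, those lost under another setting included Hey1, Fst and Grem1 in M0 when number pairs were summed, and Klf10, Nedd4l, Tcf3, Cdkn2b, Bmp2 and Ltbp1 in LPS without the deep WT libraries 3 and 4 (-0.27, 0.66, -0.28, 2.72 and 0.64 for the first 4 and Ltbp1).

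The E proteins that Id proteins bind are Tcf3, Tcf4 and Tcf12. Tcf12 was higher in KO in M0 (0.26 ± 0.076) and IL-4 (0.33 ± 0.076), and Tcf4 in LPS (0.23 ± 0.079) and IL-4 (0.24 ± 0.063). These calls are small and each was lost when some number pair was left out, with values over the alternatives of 0.16 to 0.35 and 0.24 to 0.43 for Tcf12 and of 0.17 to 0.69 and 0.15 to 0.34 for Tcf4. Tcf3 was lower in KO in LPS by -0.42 ± 0.072 (edgeR adjusted p = 9.22e-05), at 85.4 and 87.5 CPM in the deep WT libraries and 62.4 to 68.1 in the deep KO ones. LPS lowered it in both genotypes, by -0.29 ± 0.069 in WT and -0.71 ± 0.062 in KO, and that difference passed (-0.42 ± 0.092, edgeR adjusted p = 0.00337). Without WT 3 and 4 the change in WT was -0.42 and the difference -0.29, neither past the test.

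**Figure D4:**
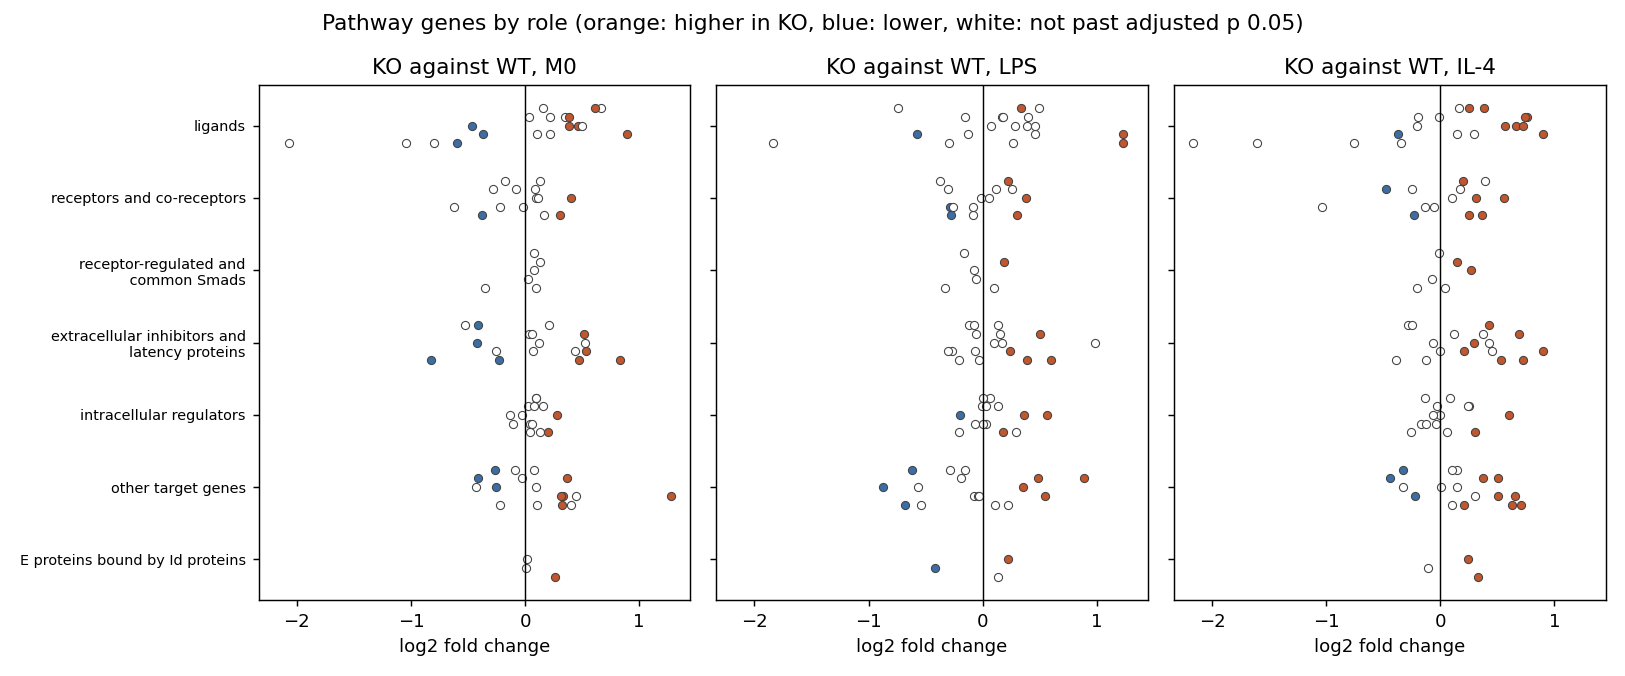
Log2 fold change of each of the 90 tested pathway genes, KO against WT in M0, LPS and IL-4, in rows by role, orange where higher and blue where lower in KO at an adjusted p under 0.05. In M0 19 genes are orange and 11 blue, in LPS 19 and 8, and in IL-4 34 and 6.

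More pathway genes were called for stimulation than for genotype, as was so for all genes. With IL-4 12 of the 90 genes rose and 52 fell in WT (median -0.46) and 13 rose and 47 fell in KO (median -0.32), beside medians of -0.01 and -0.02 over all genes. The shares called were 71.1% and 66.7%, against 60.1% and 51.3% of all genes. Of 10 stromal markers 8 were lower and 1 higher with IL-4 in each genotype. Their sum was 10514 to 12269 CPM in WT M0 and 7604 to 8186 in WT IL-4. Of 8 macrophage markers 6 were lower and 1 higher in WT, and 5 lower and none higher in KO. The part of these markers in the fall of pathway genes was not tested. The TGF-beta receptors and Smad3 were among the pathway genes that fell. In WT Tgfbr2 fell by -0.97 ± 0.081, Tgfbr1 by -0.80 ± 0.094, Smad3 by -1.05 ± 0.084 and Unc5b by -1.01 ± 0.067, and in KO Bmp6, an iron-regulating BMP, fell by -2.56 ± 0.21 and Ltbp1 by -0.83 ± 0.077. Bhlhe40, a helix-loop-helix repressor, rose by 1.66 ± 0.083 in WT (51.9 to 64.8 CPM in M0 and 177 to 189 in IL-4) and by 1.10 ± 0.082 in KO, and the difference of -0.56 ± 0.11 passed (edgeR adjusted p = 0.0150), as for 1.14% of all genes. That call was lost without WT 1 and 2 (-0.59), without WT 3 and 4 (-0.50) and without WT M0 3 alone (-0.51).

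With LPS 24 pathway genes rose and 33 fell in WT, and 24 and 37 in KO, shares of 63.3% and 67.8% against 57.7% and 67.3% of all genes. Junb, an AP-1 factor, rose by 1.76 ± 0.091 in WT and 1.99 ± 0.088 in KO, and Acvrl1, a receptor for BMP9 and TGF-beta best known in endothelium, by 1.52 ± 0.079 and 1.61 ± 0.073. Eng, its co-receptor, rose by 1.93 ± 0.14 and 1.91 ± 0.13. Skil, a Smad corepressor, rose by 1.38 ± 0.095 in WT and Tgif1 by 0.70 ± 0.049, while Grem1 rose by 3.13 ± 0.16 and Cdkn1a, a cell cycle inhibitor, by 1.23 ± 0.067 in KO. Tgfbr1 fell by -1.28 ± 0.12 in WT and -1.52 ± 0.11 in KO, and Tgfbr2 by -1.12 ± 0.096 and -0.85 ± 0.087. The genotype difference in the LPS response of Cdkn1a was 0.61 ± 0.097 (edgeR adjusted p = 0.000180). Without WT 3 and 4 it was 0.54 (adjusted p = 0.0910), and the rise of Tgif1 in WT was 0.54 (adjusted p = 0.229).

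As a description of pattern, log2 CPM was correlated over the 21 deep libraries with 10318 genes of at least 5 CPM on average. These libraries share genotypes, stimuli and label numbers, so a high Pearson r reflects those shared groups as well. Id1 was most like Rusc1 (0.90), Bre (0.88) and Tm2d2 (0.87), and Id2 like Ifrd1, Cox5a and Ptpn2 (0.97 each). Id3 was most like Slc27a4, Vamp5 (0.90 each) and Faap20 (0.90). Smad6 was most like Cul9 (0.91), Nbeal2 and Nucb1 (0.90 each), and Smad7 like Adamtsl4 (0.89), Mboat7 and Bsdc1 (0.88 each). No member was among the 3 genes most like another. Between members r was highest for Id3 with Smad6 (0.83) and with Smad7 (0.75), was 0.54 for Id1 with Smad6, and was negative for Id2 with Id3 (-0.36) and with Smad6 (-0.37).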

How the data were processed

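Total RNA from 24 libraries was sequenced. The authors deposited raw counts of reads for each gene symbol, 1 table per library. Per the submitters' processing notes, TopHat2 2.1.0, HTSeq 0.9.1 and the builds mm10 and GRCm38 were used. Annotation, kit and strandedness: not given in the sources used here. No GENCODE M21 exon of another gene overlaps a member's exons. The 5 summary lines, 8.76% to 9.98% of each library's total, were left out.

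Counts were fitted with edgeR 4.0.16 (R 4.3.3) with TMM factors, filterByExpr, 1 coefficient per group, quasi-likelihood tests, and Benjamini-Hochberg adjustment over 14693 genes at a threshold of 0.05. CPM use effective library sizes, with a prior count of 2 for correlations. Standard errors were derived from the fold change and the test. The fit was also run on simulated counts drawn independently for each library. Those counts hold no label number pairs, so the run cannot show how such pairs affect the calls. The closest 2 libraries of a group differed by a chi-square of 1.31 per degree of freedom over genes. They were WT LPS 2 and 3, and the counting error of the shallow library 2 keeps that value low. The closest 2 deep libraries, KO LPS 5 and 6, gave 7.65, above sampling noise. KO M0 5 and 6 gave 9.09 and KO M0 7 and 8 gave 8.51, against 47.0 to 63.8 across those pairs. Alternatives were DESeq2 1.42.0, its size factors in edgeR, no filter, libraries left out, label number pairs summed, and label number as a block. The members and lists were chosen with earlier results of these data known. The text names the 5 members, Ogt as a check, the called pathway genes with the smallest adjusted p (up to 6 per genotype comparison, 4 per stimulation, 3 per interaction), and receptors, Smads, Tgfb1 and E proteins by name. Other genes named were chosen after their values were seen. Promoter windows and gene models are of GRCm38.

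Of the marker lists for other cells, stromal, endothelial and macrophage results are in the text. Summed levels over deep libraries reached at most 7.43 CPM for dendritic, 0.578 for B, 0.363 for T and NK, and 0.252 for erythroid genes. They spanned 345 to 647 CPM for megakaryocyte, 7.96 to 48.3 for neutrophil, 5.96 to 26.5 for mast and basophil, and 69.7 to 356 for osteoclast genes. The megakaryocyte sum was nearly all Pf4 (up to 642 CPM), as Gp1bb, Itga2b and Gp9 reached only 5.81, 1.43 and 0.0847. The mast and basophil sum was mostly Mcpt8 (up to 25.0 CPM), with Kit up to 1.75 and Cpa3 up to 0.0614.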

Additional observations from a re-analysis of the deposited data

Results flagged for a closer look

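In 48 groups of 4 libraries (the 5 members, Ogt, Bmp2 and Tgfb1 in 6 groups), 5 groups held a library far from the other 3 by Dixon's test, and chance gives about 1 in 20 groups. Id2 stood at 131 CPM in WT LPS 2, a shallow library with 25 counts, and at 83.8 CPM in WT IL-4 3, below the other 3. Smad7 stood at 32.5 CPM in WT M0 1, above the others, and at 15.5 CPM in WT LPS 1, a shallow library with 3 counts. Bmp2 stood at 15.8 CPM in WT M0 1, above the others.

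For 5 of the pathway genes named, edgeR's interaction test found a response that differed between the genotypes. The difference, KO minus WT on the log2 scale, was 1.83 for Bmp2, 0.61 for Cdkn1a, 0.59 for Lrrc32 and -0.42 for Tcf3 in the LPS response, and -0.56 for Bhlhe40 in the IL-4 response. None of the 5 passed when label number pairs were summed.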

How the results depend on the processing

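Calls here are at edgeR's adjusted p under 0.05. Of the values recomputed for the genotype comparisons of members, their called responses and the counts, 619 kept direction and side of the threshold, 24 no longer passed, 14 newly passed, 56 counts moved and 9 values changed sign. Of the others (named pathway genes, and member responses and interactions that did not pass), 1815 were kept, 161 no longer passed, 14 newly passed and 25 changed sign, all of them members. All but 1 of the changes of sign, that of Id2 in LPS, were in values that passed in neither fit. The exceptions follow, and where nothing else is said the cause was not tested. With DESeq2 size factors the response to IL-4 differed by genotype for 2 pathway genes in place of 1. DESeq2 called 19 pathway genes for KO against WT in M0 (30 with edgeR), 8 for the genotype difference in the LPS response (13) and 3 in the IL-4 response (1). Of 19140 genes it called 750 higher and 655 lower in M0. For the interactions it called 626 and 199 with LPS, and 42 and 52 with IL-4. It called 1 member for KO against WT in LPS, where Id2 was 0.30, and 1 for LPS against M0 in KO, where Smad7 was 0.18. Under DESeq2 size factors the median of all genes for LPS against M0 was -0.11 in WT (TMM -0.01) and -0.15 in KO (TMM -0.07). There Smad7 with LPS in WT was -0.0055, Id3 with LPS in KO -0.054 and Id1 with IL-4 in KO -0.015, and DESeq2 gave -0.0074, -0.054 and -0.012 for these and -0.019 for Id1 with LPS in WT, all with the sign changed.

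Without KO numbers 5 and 6, KO against WT called 2 members and 46 pathway genes in M0, with Smad6 at -0.62. In LPS Id1 was -1.45 and Id3 -0.38, both now called, and Id2 0.20, no longer called. In IL-4 2 members were called, with Smad7 at 0.20, and Id3 for IL-4 against M0 in KO was -0.23. The genotype difference in the LPS response was called for 1 member and 26 pathway genes, and in the IL-4 response for 9. Over all 14889 genes KO against WT then called 2469 higher and 2247 lower in M0. The calls were 2085 and 2303 in LPS, and 3045 and 3132 in IL-4. For the interactions they were 944 and 1059 with LPS, and 331 and 409 with IL-4. Signs changed for Id1 (-0.090) and Id3 (-0.047) with LPS in KO, Smad7 with IL-4 in KO (0.029) and the LPS interaction of Id1 (-0.20). Without KO numbers 7 and 8, 41 pathway genes were called in LPS and 2 members in IL-4, with Id2 at -0.24, and the LPS interaction called 1 member and 22 pathway genes and the IL-4 interaction 2. Over all 14925 genes KO against WT then called 3048 higher and 2592 lower in LPS, and 2397 and 2440 in IL-4. For the interactions the calls were 1435 and 916 with LPS, and 61 and 45 with IL-4. Signs changed for Smad6 for KO against WT in M0 (0.042) and IL-4 (0.16) and for Id1 with IL-4 in KO (-0.0099).

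Both alternatives on WT numbers were chosen after seeing the data. Without WT 1 and 2, KO against WT called 0 members and 18 pathway genes in M0 (Id1 -0.65), and 2 members and 19 pathway genes in IL-4 (Id1 -0.72, Id3 0.26, Smad7 0.24), Id3 in LPS was -0.26, LPS against M0 in WT called 2 members, and the interactions called 7 and 0 pathway genes. Smad6 in IL-4 changed sign (0.14). Over all 15027 genes KO against WT then called 783 higher and 932 lower in M0, and 1438 and 1626 in IL-4. LPS against M0 in WT called 4084 and 3633. For the interactions the calls were 735 and 350 with LPS, and 9 and 11 with IL-4. Without WT 3 and 4, only shallow libraries remain in WT LPS. KO against WT then called 11 pathway genes in M0, 25 in IL-4, and 0 members and 2 pathway genes in LPS, where Id2 turned to -0.030 and Smad6 was -1.13. LPS against M0 in WT called 14 pathway genes, Smad7 for IL-4 against M0 in WT was -0.23, and the interactions called 2 and 0 pathway genes. Over all 14962 genes KO against WT called 665 higher and 650 lower in M0, and only 215 and 28 in LPS. The calls were 1795 and 1790 in IL-4, and 1041 and 637 for LPS against M0 in WT. For the interactions they were 89 and 5 with LPS, and 6 and 3 with IL-4. Signs changed for KO against WT of Id2 in M0 (-0.011) and Id3 in IL-4 (-0.021), for Id1 (-0.47) and Smad7 (-0.42) with LPS in WT and for the LPS interaction of Id2 (-0.019).

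Summing number pairs left 2 libraries per group. KO against WT called 0 members in each state and 3, 14 and 13 pathway genes in M0, LPS and IL-4, with Id1 at -0.96 in M0 and -1.08 in IL-4, and Id2 at 0.27 and Smad6 at -1.01 in LPS. For IL-4 against M0 Smad6 was -0.73 in WT, and in KO 1 member was called, with Id3 at -0.30 and Smad6 at -0.51. Both interactions called 0 pathway genes, beside 58 higher and 7 lower of 15577 genes for LPS and 0 for IL-4.

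No paired analysis was possible because KO and WT share no label number, for KO against WT. Between states within a genotype, deviations of same-numbered libraries correlated at -0.016 to 0.41 over 18 pairs of both genotypes. The main fit therefore did not use the numbers to pair libraries. Between M0 and IL-4 the KO libraries of the same number correlated at 0.31 to 0.41, those of the partner number (5 with 6, 7 with 8) at 0.32 to 0.38 and the others at -0.42 to -0.31, against 0.01 to 0.17 for same numbers in WT. With label number as a replicate block, LPS against M0 called 4 members in WT (Id1 0.42, Id3 0.24 and Smad6 0.60 were added) and 4 in KO (Id1 0.47 and Smad6 -0.27 were added). The LPS interaction called 1 member, Smad6 at -0.87, and 24 pathway genes, and the IL-4 interaction called 13. Over all 14693 genes the block fit called 1620 higher and 1367 lower for the LPS interaction, beside 972 and 704 without a block. For the IL-4 interaction the block fit called 497 and 621, beside 69 and 98. Its calls for LPS against M0 were 4610 and 4493 in WT and 4878 and 5635 in KO.

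Leaving out 1 library at a time (leave-one-out), KO against WT in LPS ranged from 0.23 to 0.37 for Id2, from -0.35 to -0.19 for Id3 and from -1.06 to -0.64 for Smad6, with 0 to 3 members and 16 to 29 pathway genes called. In IL-4 Id2 ranged from -0.25 to -0.17 and Smad7 from 0.11 to 0.20, with 1 to 2 members called, and Id1 from -1.13 to -0.79 in M0, always called. Members called ranged from 1 to 2 for LPS against M0 in WT and from 2 to 3 for both stimuli in KO, where Id1 with LPS was 0.27 to 0.89, and Id3 with LPS in WT was 0.07 to 0.23. Smad6 for IL-4 against M0 in KO was -0.62 to -0.39, and the interactions called 6 to 16 and 0 to 2 pathway genes. Ranges that crossed 0 were those of Id1 with LPS in WT (-0.20 to 0.35), Id1 with IL-4 in KO (-0.057 to 0.22), the IL-4 interaction of Id1 (-0.32 to 0.035), Id3 (-0.036 to 0.081) and Smad6 (-0.36 to 0.057) with LPS in KO, Smad7 with IL-4 in KO (-0.081 to 0.0020) and Smad6 for KO against WT in IL-4 (-0.14 to 0.063). Id1 for KO against WT in LPS ranged from -0.79 to -0.17.

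At 3 counts the 3 shallow libraries reach only 15.5 to 17.9 CPM, near the level of Id1, so LPS values rest mainly on the 5 deep libraries.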
